A study of Mus musculus with 36 samples.

Results

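Voltage-gated sodium channel subunits were followed in the hearts of the CUG960 mouse model of myotonic dystrophy type 1 (DM1), as 8 genes taken by symbol from the gene tables: the α subunits Scn10a, Scn4a, Scn8a and Scn7a, the β subunits Scn2b, Scn3b and Scn4b, and the channel-binding factor Fgf13. All 8 were present among 55291 gene symbols, and all 8 passed the filter on low counts that left 19231 genes for testing. RNA-Seq covered left ventricle and atria from 6 cohorts, with 3 libraries per cohort and chamber and 36 libraries in all. Every mouse, controls included, was bitransgenic: the TREDT960I transgene carries interrupted CTG repeats in the human DMPK context under a tetracycline response promoter and was homozygous, and the MHCrtTA transgene, hemizygous, expresses the reverse tetracycline transactivator from the cardiomyocyte-specific α-MHC promoter, so CUGexp RNA is made in cardiomyocytes when doxycycline (dox) is fed. The +dox cohort received dox chow from postnatal day 1 and no vector. The +/–dox cohort was started the same way and taken off dox at 9 weeks, and the –dox cohort never received it. For the MBNL1, MBNL2 and MBNL1+MBNL2 cohorts dox was continued, and mice were injected by tail vein at 9 weeks with AAV9 vectors that drive 3xFLAG-hMBNL1, 3xMYC-hMBNL2 or both from the heart-specific human TNNT2 promoter. All tissue was taken at 21 weeks. The +dox cohort sequenced here had no AAV, so vector and MBNL protein cannot be told apart in the comparisons with it, and the –dox cohort differs from it both in dox chow and in CUGexp RNA.

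Voltage-gated sodium channels carry the fast inward current that starts the action potential, and in the heart they set how quickly excitation spreads through atria, conduction tissue and ventricles. An α subunit forms the pore, β subunits are single-span membrane proteins with an immunoglobulin fold that modify gating and surface delivery, and fibroblast growth factor homologous factors such as Fgf13 bind the intracellular C-terminus of the α subunit and shift its inactivation. In DM1, RNA with expanded CUG repeats sequesters muscleblind-like (MBNL) proteins, which control alternative splicing and other steps of RNA processing, and conduction disease is a leading cardiac feature of the disorder.

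Of the 8 genes, 4 lie on mouse chromosome 9 (GRCm38, GENCODE annotation). Scn2b and Scn4b are neighbours on the plus strand, at chr9:45117782-45130070 and chr9:45138395-45154152, with 8324 bases between them, and Scn3b is at chr9:40269217-40291618 on the same strand. Scn10a is at chr9:119608456-119719322, minus strand. Scn7a (chr2:66673425-66784914, minus), Scn4a (chr11:106318592-106353288, minus), Scn8a (chr15:100869858-101045938, plus) and Fgf13 (chrX:59062145-59568071, minus) lie on other chromosomes. No exon of the 8 genes overlaps an exon of another annotated gene. The promoters of the 3 members called in the atria between the –dox and +dox cohorts are shown, from RefSeq GRCm38.p6, as 300 bases running from 250 before to 50 after the transcription start. Capitals mark matches on either strand to an E-box (CANNTG), a GATA motif (AGATAA) or a T-box motif (GGTGTG).
Scn10a promoter, chr9:119718983-119719282, minus strand: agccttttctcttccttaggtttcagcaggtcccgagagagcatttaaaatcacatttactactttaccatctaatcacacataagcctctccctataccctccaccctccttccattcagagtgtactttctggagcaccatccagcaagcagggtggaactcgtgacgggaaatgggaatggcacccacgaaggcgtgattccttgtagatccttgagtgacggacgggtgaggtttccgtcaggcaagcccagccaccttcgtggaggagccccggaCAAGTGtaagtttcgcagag
Scn7a promoter, chr2:66784861-66785160, minus strand: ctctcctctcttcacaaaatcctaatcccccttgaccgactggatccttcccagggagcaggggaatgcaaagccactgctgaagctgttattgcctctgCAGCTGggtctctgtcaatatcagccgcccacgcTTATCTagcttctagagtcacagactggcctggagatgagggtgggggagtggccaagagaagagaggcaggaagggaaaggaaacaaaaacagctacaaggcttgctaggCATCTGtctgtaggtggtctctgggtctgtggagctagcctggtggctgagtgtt
Scn4b promoter, chr9:45138374-45138673, plus strand: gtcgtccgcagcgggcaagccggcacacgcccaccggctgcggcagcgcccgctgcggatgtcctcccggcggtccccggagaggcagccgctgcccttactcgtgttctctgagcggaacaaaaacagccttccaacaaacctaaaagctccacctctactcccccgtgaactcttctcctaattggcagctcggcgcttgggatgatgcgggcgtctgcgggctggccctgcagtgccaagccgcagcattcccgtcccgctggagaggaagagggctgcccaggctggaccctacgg
The Scn10a window held 1 E-box and a GC content of 51.7%, and the Scn7a window held 2 E-boxes and 1 GATA motif at a GC content of 54.0%. The Scn4b window held no match to these 3 motifs and was the most GC-rich of the 3, at 66.3%. Of 32851 mouse promoters of this length, 72.3% held an E-box, 11.2% the GATA motif and 19.0% the T-box motif, and their median GC content was 52.7%. These matches are a description of the sequence, and no binding was measured.

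The 36 libraries came from 18 mice, with left ventricle and atria from each, of which 2 males and 1 female made up 5 of the cohorts and 3 males the MBNL1+MBNL2 cohort. The labels do not tie a library to a mouse. The libraries summed to 57.8 to 97.1 M counts in the ventricles and 55 to 85.8 M in the atria. Ventricle MBNL1 replicate 1 stood apart, with 16885 genes above 0 against 20578 to 24041 in the other ventricular libraries. The library numbers fall into 2 sets, and one of them holds replicate 3 of 5 cohorts together with every MBNL1+MBNL2 library. Replicate 3 of those 5 cohorts also had a lower summed level of Xist and 4 Y-linked genes, at 13.9 to 41.6 TPM (transcript abundance scaled by length and depth) against 70.7 to 99.6 in the other libraries. Xist alone had medians of 0.075 TPM in ventricles and 0.05 in atria and maxima of 19.25 and 41.24, so the lower sum does not give the direction of Xist. Library set, replicate number and sex cannot be told apart in those cohorts, and the MBNL1+MBNL2 cohort differs from the others in sex and library set as well as in vector. The summed level of an atrial marker list was far lower in ventricular libraries, at 0.182 to 1.99% of the atrial median. That of a ventricular list in atrial libraries was 1.19 to 4.55% of the ventricular median. Myh7 of the ventricular list was not restricted to a chamber, with medians of 283 TPM in atria and 305 in ventricles. The ventricular share is therefore not a measure of ventricular tissue alone. The RNA is from whole tissue, so fewer cells of a type and less RNA per cell cannot be told apart.

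The most abundant of the 8 genes was not a pore-forming subunit in either chamber. In the ventricles, where TPM allows levels to be compared between genes, Scn4b ranged from 20.5 to 49.7 TPM (median 37.7, 18 libraries) and Fgf13 from 25.6 to 40.2 (median 28.4), and these 2 ranges overlapped. Scn4a followed at 6.00 to 15 TPM (median 10.1) and Scn7a at 4.88 to 8.36 (median 6.75), overlapping each other and lying below Fgf13. Scn3b (median 0.485), Scn2b (median 0.455) and Scn10a (median 0.30) formed a low group with overlapping ranges between 0.09 and 0.85 TPM, and Scn8a did not exceed 0.03. In the atria the order changed: Fgf13 was highest at 25.3 to 33.1 TPM (median 28.2), above every atrial library of Scn4b at 5.57 to 19.6 (median 13.3). Scn7a at 9.24 to 17.3 TPM (median 12.3) and Scn4a at 6.59 to 14.5 (median 11.1) overlapped Scn4b. Atrial Scn10a reached 0.78 to 3.38 TPM (median 1.42), overlapping Scn2b (median 0.645), while Scn3b had a median of 0.335 and Scn8a stayed at or below 0.17. The plot of TPM by chamber shows this order.

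**Figure D1:**
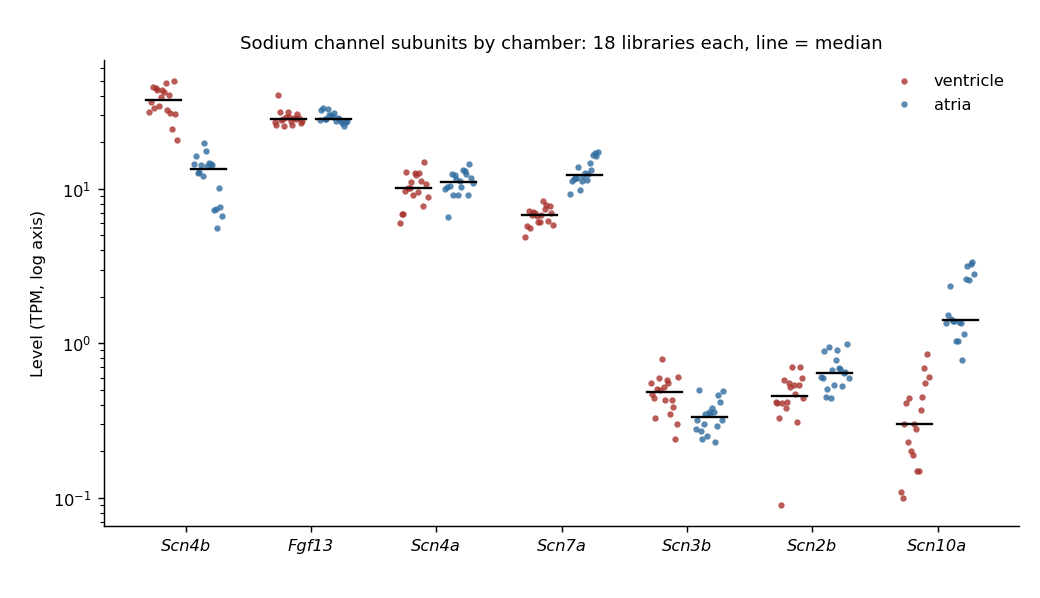
Level of 7 of the 8 genes in TPM (log axis), Scn8a being left out near 0, in the 18 ventricular and 18 atrial libraries, 1 point per library and a line at the median. Scn4b and Fgf13 lie at the top in the ventricles, Fgf13 alone at the top in the atria, and Scn10a is higher in the atria, with medians of 0.30 and 1.42 TPM.

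Cohorts were compared with edgeR's quasi-likelihood test over all 19231 genes and 36 libraries, and a gene was called changed at a Benjamini-Hochberg adjusted p under 0.05 and at least a 1.5-fold difference. Folds and tests use CPM, counts scaled to library size and by TMM, a quantity that compares libraries for 1 gene and not genes with each other. In the ventricles against +dox, 2 of the 8 genes were called in –dox, both higher, beside 7.6% of all genes tested, and 2 in +/–dox, both higher, beside 6.6%. In the MBNL1 ventricles 1 member was called, higher, beside 2.66% of genes. No member was called in the MBNL2 ventricles, where 1.52% of genes were, or in the MBNL1+MBNL2 ventricles, where 2.65% were. In the atria against +dox, 3 members were called in –dox, 2 higher and 1 lower, beside 5.23% of genes, and 1 in +/–dox, lower, beside 3.99%. Against the same +dox atria no member was called in MBNL1, MBNL2 or MBNL1+MBNL2, where 0.13%, 0.0052% and 0.26% of genes were called. The median log2 fold change of the 8 genes in –dox against +dox was 0.075 in the ventricles and 0.18 in the atria, beside 0.0087 and 0.027 over all genes tested.

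Comparisons with the +/–dox cohort set each MBNL cohort against mice that had been taken off dox when the vectors were given. In the ventricles 1 member was called lower in MBNL2, beside 1.57% of genes, and 1 lower in MBNL1+MBNL2, beside 0.53%, while none was called in MBNL1, where 0.868% of genes were. In the atria 1 member was called lower in MBNL1, beside 1.21% of genes. In MBNL2 and in MBNL1+MBNL2 atria 2 members each were called, 1 higher and 1 lower, beside 3.24% and 1.71% of genes. No member was called between –dox and +/–dox in either chamber, where 0.0312% of ventricular and 0.0104% of atrial genes were. In the 8 cohort comparisons with no member called by edgeR, at most 2 members had an unadjusted p under 0.05, and DESeq2 called 1 member in the MBNL1+MBNL2 ventricles against +dox and none in the other 7. Over the 18 cohort comparisons, Scn10a was called in 9, Scn4b in 4, Scn4a in 2 and Scn7a in 1, and Scn2b, Scn3b, Scn8a and Fgf13 in none. These comparisons share the +dox or +/–dox libraries and are not independent of one another. The heat map of log2 fold changes shows all of them.

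**Figure D2:**
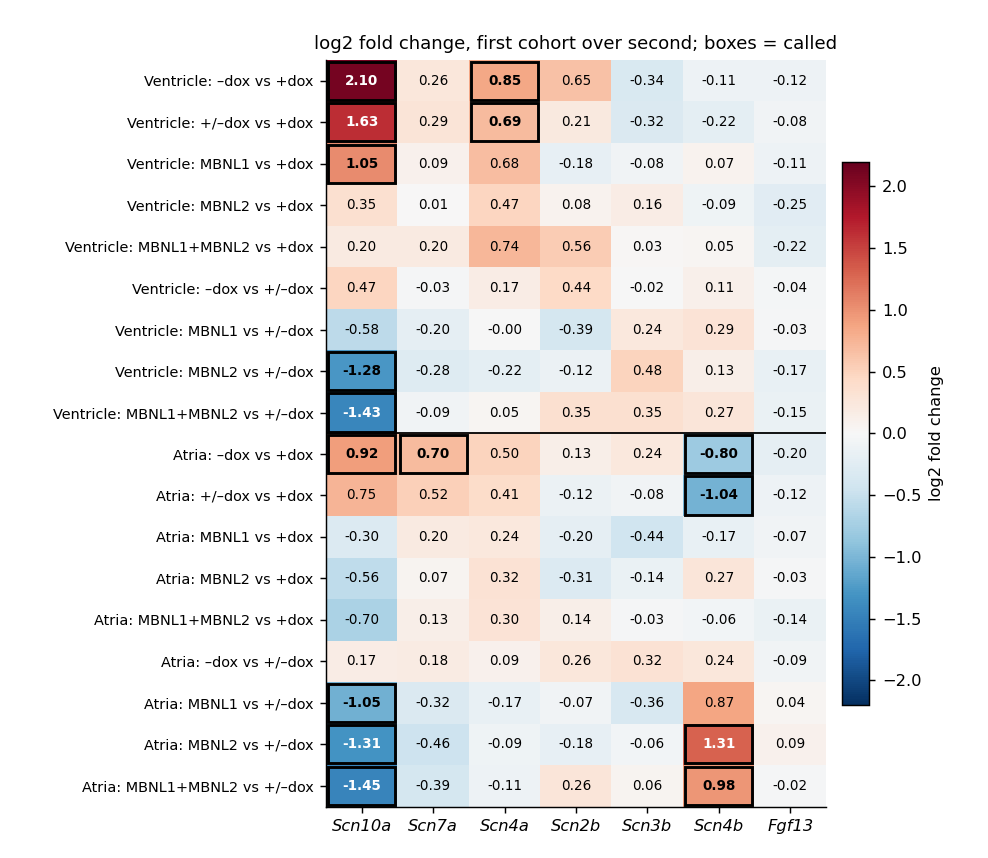
Log2 fold change of 7 genes (columns, without Scn8a) in the 18 comparisons between cohorts of a chamber (rows, first cohort over second), as color, with boxes around changes at an adjusted p under 0.05 and at least 1.5-fold (edgeR). Boxes lie mainly on Scn10a, with 9, and Scn4b, with 4, and none lies on Scn2b, Scn3b or Fgf13.

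Scn10a, which encodes Nav1.8, an α subunit best known from sensory neurons and linked by human genetics to cardiac conduction intervals, was called in more comparisons than any other member and was higher in –dox than in +dox in both chambers. In the ventricles of +dox mice it was at 0.671, 0.587 and 1.6 CPM in replicates 1, 2 and 3, from 59, 52 and 104 counts. In –dox ventricles it was at 3.31, 5.28 and 3.39 CPM, and in +/–dox ventricles at 2.19, 2.68 and 3.80 CPM. Every library of both cohorts without dox at the time of collection was above every +dox library, and the +dox cohort contained 1 library, replicate 3, well above the other two. Scn10a was 4.29-fold higher in –dox than in +dox (log2 fold change 2.10, SE 0.32, edgeR adjusted p = 2.03e-05). In +/–dox the log2 fold change was 1.63 (SE 0.32, edgeR adjusted p = 0.000511). Both differences were called whichever of the 6 libraries was left out, with log2 fold changes of 1.84 to 2.67 and 1.37 to 2.2. Within replicate 3 alone, 1 library against 1 and with no test, the log2 ratios were smaller, 1.09 and 1.25. The summed level of a neuron list was 24.6 to 42.6 TPM in +dox, 16.1 to 20.3 in –dox and 20.9 to 22.5 in +/–dox ventricles. Most of that sum was Uchl1, with a ventricular median of 22.8 TPM, ahead of Stmn2 at 4.4. Of 6 genes of the list tested in –dox, 1 was called higher and 1 lower. Their median log2 fold change was 0.089 in –dox and -0.21 in +/–dox. The part of this list in the Scn10a difference was not tested. Snap25, Th and Chat of that list were below 0.1 TPM in every ventricular library.

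In the 3 MBNL cohorts ventricular Scn10a lay between these levels or near the +dox level. MBNL1 ventricles had 2.12, 1.34 and 2.31 CPM, MBNL2 ventricles 1.02, 1.01 and 1.54, and MBNL1+MBNL2 ventricles 1.59, 0.752 and 0.877. All 3 cohorts overlapped +dox in range, and the MBNL2 and MBNL1+MBNL2 libraries all lay below every +/–dox library. Against +dox, Scn10a was called in MBNL1 (log2 fold change 1.05, SE 0.32, edgeR adjusted p = 0.0394), a call lost without MBNL1 replicate 1 or 3 or without +dox replicate 1 or 2, where the adjusted p was 0.108 to 0.168. The log2 fold changes of MBNL2 and MBNL1+MBNL2 over +dox were 0.35 and 0.20, with adjusted p of 0.594 and 0.782 (edgeR). Against +/–dox, Scn10a was lower in MBNL2 (log2 fold change -1.28, SE 0.32, edgeR adjusted p = 0.0147) and in MBNL1+MBNL2 (-1.43, SE 0.32, adjusted p = 0.0171), and the value in MBNL1 was -0.58 (adjusted p = 0.334). The MBNL2 call was lost without MBNL2 replicate 1 or 2 or +/–dox replicate 3 (adjusted p up to 0.0925), and the MBNL1+MBNL2 call without its replicate 2 or 3 or +/–dox replicate 2 or 3 (up to 0.140).

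Atrial Scn10a was more abundant and was also called higher in –dox than in +dox. The +dox atria had 5.69, 6.09 and 8.67 CPM, the –dox atria 13.8, 14.2 and 10.7, and the +/–dox atria 10.6, 13.8 and 10.03. No library of the –dox or +/–dox cohort overlapped the +dox range. The increase was called in –dox (log2 fold change 0.92, SE 0.29, edgeR adjusted p = 0.0268), while +/–dox gave 0.75 with an adjusted p of 0.0877. The –dox call was lost without +dox replicate 1 or 2 or –dox replicate 1 or 2, with adjusted p of 0.0776 to 0.135, and within replicate 3 alone the log2 ratio was 0.30. Beside it, 1 of 6 tested genes of the neuron list (median log2 fold change 0.57) and 2 of 10 of a conduction system list (0.37) were called higher in –dox atria. The summed level of the neuron list was 18.7 to 27.5 TPM in –dox and 26.2 to 27.4 in +dox atria, that of the conduction system list was 45.3 to 54.95 and 46.3 to 53.9 TPM, and the part of either in the Scn10a difference was not tested.

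The MBNL cohorts had lower mean atrial Scn10a than the 3 cohorts without vector. MBNL1 atria had 5.62, 5.85 and 5.14 CPM, MBNL2 atria 4.31, 4.33 and 5.26, and MBNL1+MBNL2 atria 5.24, 2.97 and 4.36. All 9 of these libraries lay below all 6 libraries of the –dox and +/–dox atria, and the MBNL2 and MBNL1+MBNL2 libraries also lay below the 3 +dox libraries. Against +dox the log2 fold changes were -0.30, -0.56 and -0.70, and none was called. Against +/–dox Scn10a was lower in MBNL1 (-1.05, SE 0.29, edgeR adjusted p = 0.0314), MBNL2 (-1.31, SE 0.29, adjusted p = 0.00344) and MBNL1+MBNL2 (-1.45, SE 0.29, adjusted p = 0.00229). The MBNL2 and MBNL1+MBNL2 calls remained without any 1 of their 6 libraries, and the MBNL1 call was lost in each of the 6 such fits, at adjusted p of 0.0516 to 0.151.

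Scn4b, the disulphide-linked β4 subunit, moved in the opposite direction and was called between cohorts of the atria but not of the ventricles. Atrial Scn4b was at 44.9, 48.1 and 34.4 CPM in +dox, at 31.2, 23.4 and 18.6 in –dox and at 22, 23.9 and 16.1 in +/–dox. Replicate 3 was the lowest library in each of these 3 cohorts, and every –dox and +/–dox library was below every +dox library. Scn4b was lower in +/–dox than in +dox (log2 fold change -1.04, SE 0.27, edgeR adjusted p = 0.0101) and in –dox (-0.80, SE 0.26, adjusted p = 0.0395). Without +/–dox replicate 3 the first had an adjusted p of 0.0727, and the second was lost without +dox replicate 1 or 2 or –dox replicate 2 or 3, at 0.11 to 0.186. Within replicate 3 alone the log2 ratios were -1.10 and -0.88.

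Atrial Scn4b in the MBNL cohorts overlapped +dox. It was at 36.9, 43.7 and 33 CPM in MBNL1, at 60.5, 53.6 and 39.1 in MBNL2 and at 41.9, 40.6 and 39.4 in MBNL1+MBNL2. Each of these ranges overlapped +dox, and each lay above every +/–dox library. Against +/–dox, Scn4b was higher in MBNL2 (log2 fold change 1.31, SE 0.27, edgeR adjusted p = 0.00203) and in MBNL1+MBNL2 (0.98, SE 0.27, adjusted p = 0.0250), and MBNL1 gave 0.87 with an adjusted p of 0.0586. The MBNL2 call remained in all 6 fits that left out a library, and the MBNL1+MBNL2 call was lost in 5 of 6, at 0.0515 to 0.134. As a share of the summed TPM of the 8 genes, Scn4b made up 18.6 to 22.7% in +dox atria, 10.1 to 14.1% in –dox and 9.04 to 11.4% in +/–dox.

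Ventricular Scn4b varied widely inside cohorts. It was at 135, 164 and 181 CPM in +dox, at 223, 138 and 83.5 in –dox and at 178, 136 and 97.8 in +/–dox. Replicate 3 was highest in +dox and lowest in the other two, and all 3 ranges overlapped. The log2 fold changes over +dox were -0.11 in –dox and -0.22 in +/–dox, and neither was called. A carry-over of ventricular tissue into atrial samples at the share given by the ventricular marker list would amount to 0.591 to 2.26 TPM of Scn4b. That share includes Myh7, which the atria held at a median of 283 TPM, so it does not measure ventricular tissue alone. Measured Scn4b was 12.6 to 16.3 TPM in +dox atria, 6.65 to 10.1 in –dox and 5.57 to 7.37 in +/–dox. The corresponding atrial share in ventricular samples would amount to 0.00615 to 0.0672 TPM of Scn10a, against 0.10 to 0.30 TPM in +dox and 0.55 to 0.85 in –dox ventricles. The per-library plot of Scn10a and Scn4b shows both genes in both chambers.

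**Figure D3:**
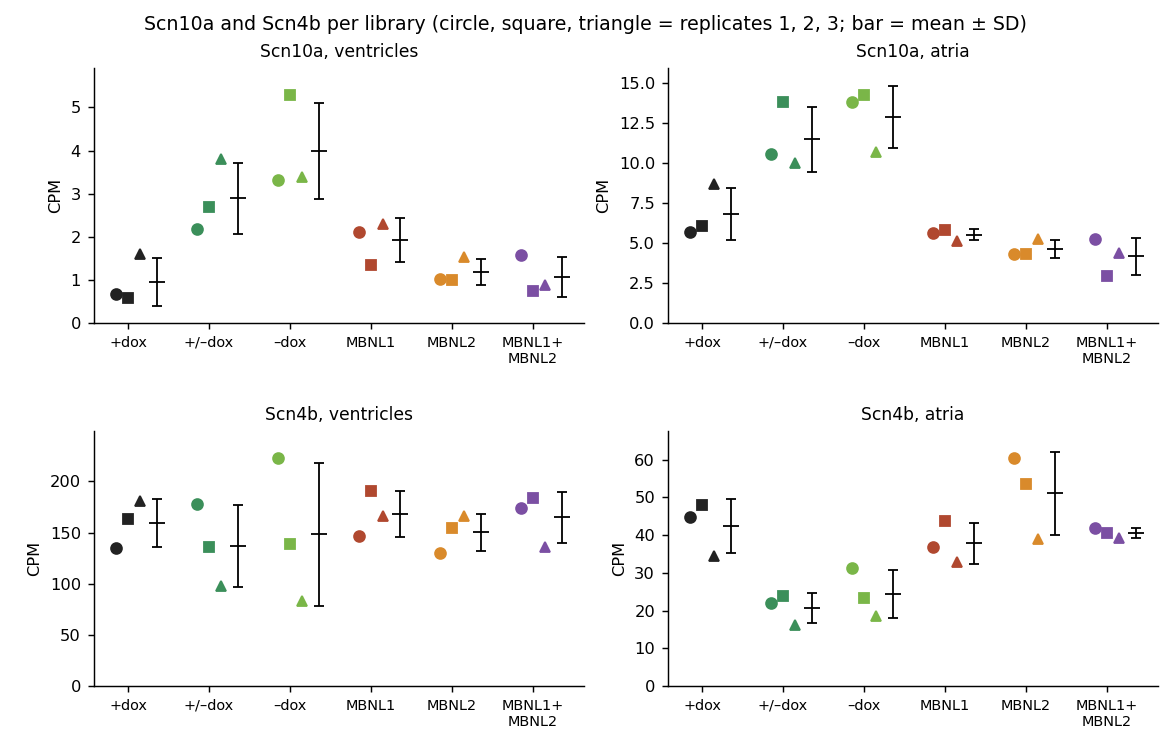
Scn10a and Scn4b in TMM-scaled CPM in the 6 cohorts of each chamber, 1 point per library with the bar at the mean and error bars of 1 SD (n = 3). Every –dox and +/–dox library of Scn10a lies above the +dox libraries of its chamber, and Scn4b is lower in –dox and +/–dox in the atria, from 34.4 to 48.1 CPM in +dox to 16.1 to 31.2.

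Scn4a, which encodes Nav1.4, the α subunit that predominates in skeletal muscle, was lowest in +dox in the ventricles. It was at 34.6, 41.5 and 36.4 CPM in +dox, at 90.0, 65.1 and 48.3 in –dox and at 73.7, 66.0 and 41.7 in +/–dox. The last 2 cohorts lay above +dox in every library, with replicate 3 the lowest of each. Scn4a was called higher in –dox (log2 fold change 0.85, SE 0.25, edgeR adjusted p = 0.0141) and in +/–dox (0.69, SE 0.25, adjusted p = 0.0456). The –dox call was lost without +dox replicate 1 (adjusted p = 0.0638, edgeR) or –dox replicate 1 (0.129), and the +/–dox call was kept only without +/–dox replicate 3 and lost in the other 5 fits, at 0.0630 to 0.210. Within replicate 3 alone the log2 ratios were 0.41 and 0.20.

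Ventricular Scn4a in the MBNL cohorts also lay above every +dox library. It was at 56.8, 72.6 and 51.5 CPM in MBNL1, at 51.4, 58.4 and 46 in MBNL2 and at 70.5, 62.6 and 54.3 in MBNL1+MBNL2. The log2 fold changes over +dox were 0.68, 0.47 and 0.74, with edgeR adjusted p of 0.0793, 0.266 and 0.0638, so none was called by edgeR. Under other settings Scn4a was called in 5 of 9 for MBNL1 and 4 of 8 for MBNL1+MBNL2, DESeq2, limma, the library set term and the replicate block among them. Atrial Scn4a ranged from 24.2 to 60.3 CPM, was not called in any comparison, and had its lowest library in replicate 3 in each of the 5 cohorts with libraries of both sets. The summed level of a skeletal muscle list was 1.25 to 1.52 TPM in +dox and 1.28 to 2.11 in –dox ventricles with 0 of 7 tested genes called, and Myh1, Myh2, Myh4 and Actn3 were below 0.1 TPM in every ventricular library.

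Scn7a encodes Nax, an atypical family member known as a sodium sensor of glia and other non-neuronal cells. Atrial Scn7a was at 42.9, 49.6 and 47.5 CPM in +dox, at 79.2, 75.7 and 72.4 in –dox and at 66.2, 63.9 and 71.3 in +/–dox. The 3 cohorts were tightly grouped, and both cohorts without dox at collection lay above +dox in every library. Scn7a was called higher in –dox (log2 fold change 0.70, SE 0.13, edgeR adjusted p = 0.000246). The call remained whichever library was left out, at 0.64 to 0.74, and the log2 ratio within replicate 3 alone was 0.61. In +/–dox the adjusted p was 0.00554 but the log2 fold change of 0.52 was under the 1.5-fold limit.

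MBNL1, MBNL2 and MBNL1+MBNL2 atria held 44.9 to 55.9 CPM of Scn7a, below every –dox and +/–dox library, and none was called against +dox. MBNL2 atria were lower than +/–dox at -0.46, with an edgeR adjusted p of 0.0177 and under the fold limit. Ventricular Scn7a ranged from 31.5 to 53.1 CPM, and no cohort comparison was called there. The summed level of 10 genes of Schwann cells and satellite glia was 21.9 to 26.8 TPM in +dox atria. It was 27.2 to 34.7 in –dox and 26.2 to 30.8 in +/–dox. In –dox atria 2 of 10 were called higher, beside 2.83% of all genes, with a median log2 fold change of 0.57. In ventricles 0 were called in –dox (median 0.39) and 1 in +/–dox (0.74). Fibroblast sums were also higher in –dox than +dox atria, at 1342 to 1441 against 999 to 1261 TPM. Endothelial sums were too, at 283 to 340 against 222 to 253. Sums of macrophage and of smooth muscle and pericyte genes overlapped between these cohorts. The part of any of these cells in the Scn7a difference was not tested. The per-library plot of Scn4a and Scn7a shows the values by cohort.

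**Figure D4:**
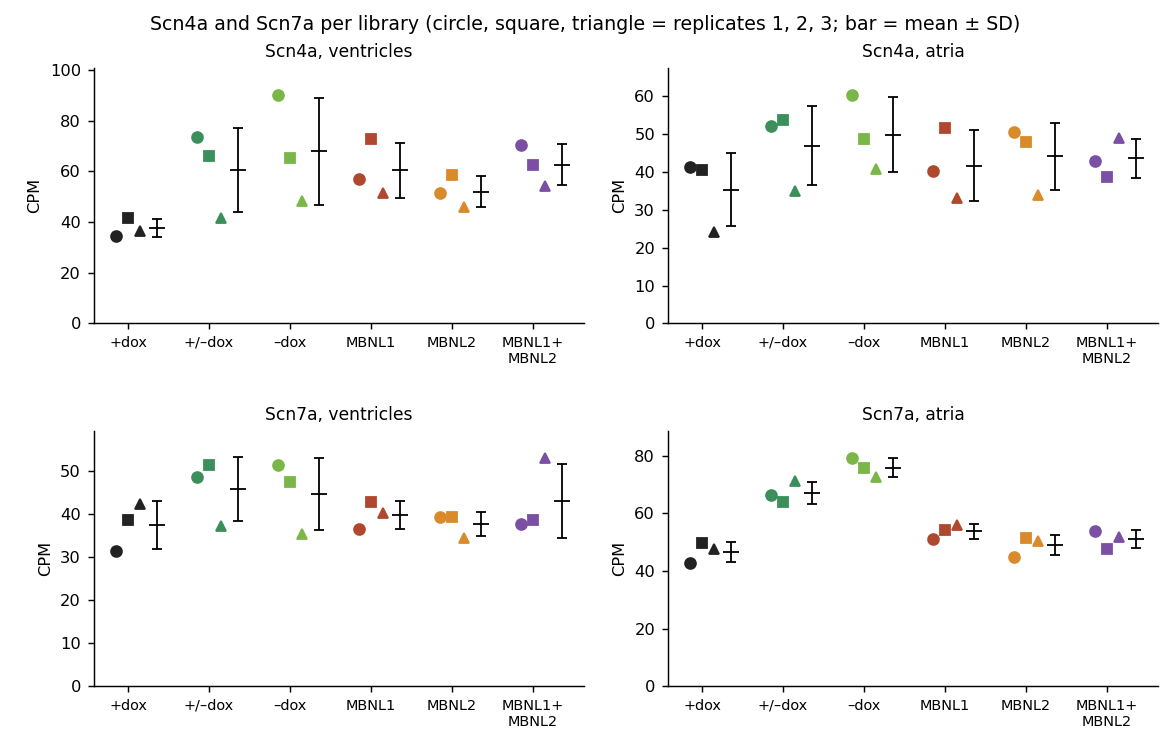
Scn4a and Scn7a in TMM-scaled CPM in the 6 cohorts of each chamber, 1 point per library with the bar at the mean and error bars of 1 SD (n = 3). Ventricular Scn4a is lowest in +dox at 34.6 to 41.5 CPM, and atrial Scn7a is highest in –dox at 72.4 to 79.2 CPM.

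The remaining members were called in no comparison between cohorts. Fgf13, on the X chromosome, was at 39.2 to 65.0 CPM in the ventricles and 31.2 to 38.3 in the atria, with ratios of the highest to the lowest cohort mean of 1.19 and 1.15. Its highest library, ventricle +dox replicate 3, stood above the other two of that cohort, at 46.7 and 46.9 CPM. Scn3b, the non-covalently bound β3 subunit, was at 0.884 to 2.57 CPM in the ventricles and 0.565 to 1.13 in the atria. Scn2b, the β2 subunit, was at 1.18 to 2.85 CPM in the atria and 0.306 to 2.91 in the ventricles, where the lowest value came from 21 counts in ventricle MBNL1 replicate 1, the library with few genes above 0. Leaving that library aside, ventricular Scn2b was at 1.21 CPM or more. Scn8a, encoding the neuronal Nav1.6, had 0 to 20 counts per library, where a count of 0 allows up to 3, and no fold is given for it. For –dox against +dox the log2 fold change with an interval of 2 SE on either side was -0.31 to 0.07 for Fgf13, -0.08 to 1.38 for Scn2b and -0.89 to 0.22 for Scn3b in the ventricles, so for the last 2 genes a 1.5-fold difference could not be told from none at this depth.

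Both chambers were compared in the control –dox and in the +dox hearts. Here 4 of 8 members were called in –dox, 2 higher in ventricle and 2 higher in atria, beside 24.9% of all genes, and 3 in +dox, beside 25%. Scn10a was higher in atria, with a ventricle to atria log2 fold change of -1.69 in –dox (SE 0.30, edgeR adjusted p = 2.51e-05) and -2.87 in +dox (SE 0.32, 1.56e-08). Scn4b was higher in ventricles, at 2.60 in –dox (SE 0.28, edgeR adjusted p = 1.80e-08) and 1.91 in +dox (SE 0.27, 1.77e-06). In –dox hearts Scn7a was also lower in ventricles (-0.76, edgeR adjusted p = 1.13e-05) and Fgf13 higher (0.60, 5.42e-06), while in +dox hearts Scn3b was higher in ventricles (0.99, 0.00409). Fgf13 in +dox gave 0.52 and Scn7a -0.32, both past the adjusted p and under the fold limit. Beside Scn7a, 7 of 10 genes of the Schwann cell and satellite glia list were called lower in –dox ventricles than atria and 4 in +dox. Of 5 genes each, 4 of the fibroblast and 4 of the macrophage list were also lower in –dox, and 1 and 4 in +dox. Endothelial and smooth muscle lists each had 2 of 5 called higher in ventricles, and the endothelial list 1 lower. The part of these cells in the Scn7a difference was not tested. With the animal as a block the same members were called in both comparisons.

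The size of these chamber differences depended on the scale. Over genes at 1 TPM or more the median log2 ratio of ventricle to atria was -0.55 in +dox and -0.56 in –dox on the TPM scale, whereas the fitted median over all genes was near 0 with TMM, at 0.00 and -0.03. On the TPM scale Fgf13 had log2 ratios of -0.01 in +dox and 0.06 in –dox, and Scn3b 0.41 and -0.10, so the Scn3b direction in –dox and the Fgf13 direction in +dox turned with the scale. The ventricular mean of Scn4a, called in neither chamber comparison, was above the atrial mean in CPM and below it in TPM in both cohorts. Scn10a was lower and Scn4b higher in ventricles in all 6 cohorts on both scales, and Scn7a lower on both. The plot of chamber ratios shows both scales.

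**Figure D5:**
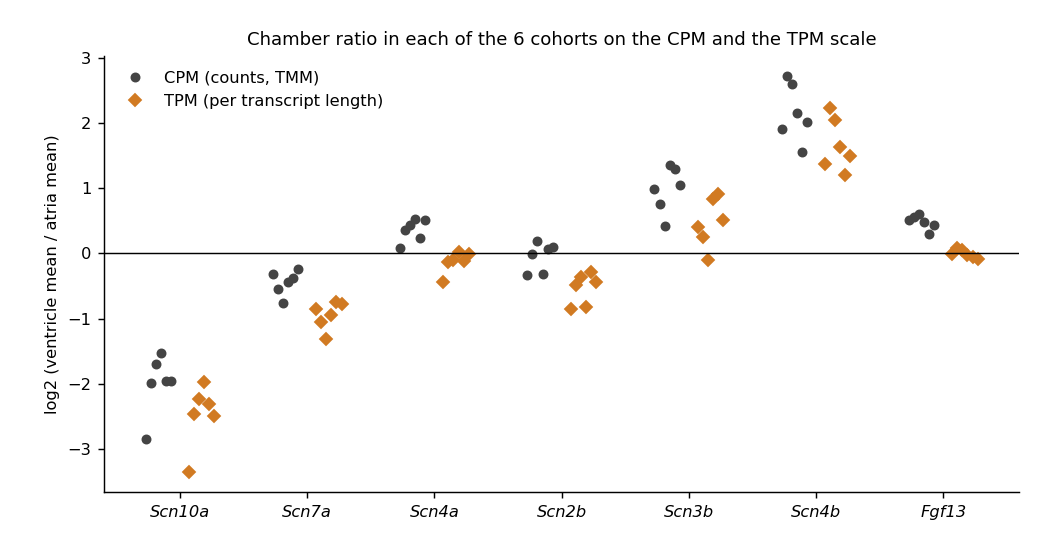
Log2 ratio of the ventricular to the atrial cohort mean for 7 genes (without Scn8a), 1 point per cohort, on the TMM-scaled CPM and the TPM scale. Scn10a lies below 0 and Scn4b above 0 in all 6 cohorts on both scales, and Fgf13 and Scn3b come nearer to 0 in TPM.

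Whether the dox effect differed between chambers was tested as an interaction. In the fit without animals, none of the 8 members was called for –dox against +dox, where 0.764% of genes were, or for +/–dox against +dox, where 0.489% were, and 2 members had an unadjusted p under 0.05 in each. Scn10a for –dox gave 1.18 on the log2 scale, ventricle minus atria (SE 0.43, edgeR adjusted p = 0.222). It was called without ventricle +dox replicate 3, at 1.75 (edgeR adjusted p = 0.0232), and turned to -0.10 with limma on log2(TPM + 1), a scale that compresses changes of genes near 0. These fits treat the 36 libraries as independent. With the animal as a block, taking equal replicate numbers of a cohort as 1 mouse, Scn10a was called for –dox at 1.23 (SE 0.29, edgeR adjusted p = 0.0238), where 1.55% of genes were called, and not for +/–dox, at 0.94 (0.0913), where 1.2% were. Scn4b gave 0.69 (0.522) for –dox and 0.82 (0.353) for +/–dox, and Scn7a gave -0.44 (0.306) for –dox, and neither was called with the animal as a block. The calls of Scn4b and Scn7a in the atria and not in the ventricles are therefore not shown to differ between chambers.

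Of 9 further genes of the channel family, 6 were expressed enough to be tested. Against +dox, Scn3a, a neuronal α subunit, was higher in –dox ventricles (log2 fold change 0.64) and in –dox (1.07, SE 0.22) and +/–dox atria (1.05). It was lower than +/–dox in MBNL1 atria (-0.84), where 1 of the 6 was called, lower, beside 1.21% of all genes. In MBNL2 atria Scn3a was also lower than +/–dox (-0.71), 1 of 2 called lower there, beside 3.24%. In –dox 2 of these 6 were called in each chamber, all higher, beside 7.6% of all genes in the ventricles and 5.23% in the atria, with Fgf11 (0.70) beside Scn3a in the ventricles and Nalcn (0.96), the sodium leak channel, beside it in the atria. Fgf12, another fibroblast growth factor homologous factor, was at 119 to 155 TPM in atria and 0.37 to 4.09 in ventricles, with a ventricle to atria log2 fold change of -5.59 in –dox (SE 0.47). In –dox ventricles Fgf12 was at 0.37, 3.25 and 1.73 TPM. The atrial share given by the atrial marker list would carry 0.283, 3.09 and 1.41 TPM of it. In –dox the ventricular level and the fold therefore cannot be told apart from carried-over atrial RNA. In +dox ventricles Fgf12 was at 2.77, 2.7 and 1.73 TPM, where that share would carry 1.44, 1.45 and 0.382 TPM. The part of carried-over RNA in the +dox level was not tested.

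A list of 20 genes for proteins that anchor, traffic or neighbour the cardiac sodium channel was tested in full. In –dox against +dox 1 of 20 was called in each chamber, beside the same 7.6% and 5.23% of all genes, Sptbn4, a spectrin of excitable membranes, in the ventricles (log2 fold change -1.22) and Cav3, caveolin of muscle, in the atria (-0.63). In +/–dox against +dox 1 of 20 was again called in each chamber, beside 6.6% and 3.99% of all genes. It was Sptbn4 in the ventricles (-1.38) and Gja1, the gap junction protein connexin 43, in the atria (0.68). Gja1 was lower in MBNL1+MBNL2 than in +/–dox in both ventricles (-0.63) and atria (-0.66). There 1 of 20 was called in each chamber, beside 0.53% and 1.71% of all genes. Also against +/–dox, 1 of 20 was called higher in MBNL1 ventricles, beside 0.868%. Against +dox none of the 20 was called in the MBNL1, MBNL2 or MBNL1+MBNL2 cohorts of either chamber. Of all genes, 2.66%, 1.52% and 2.65% were called there in the ventricles and 0.13%, 0.0052% and 0.26% in the atria.

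Finally, the genes whose levels ran most nearly parallel to each member were listed by Pearson's r of log2 CPM centred within each chamber, over 36 libraries and 13261 genes. These values are descriptive, since the points share library, library set and cohort. Scn10a ran most like Tbc1d10c (0.89), Bag1 (0.88) and Osbpl3 (0.86), and Scn4b most like Trappc10 (0.88), Hdlbp (0.86) and Rasl10b (0.85). Scn4a ran most like Cpt2 (0.90), Acaa2 (0.89) and Vwa8 (0.88), of which Cpt2 and Acaa2 are mitochondrial enzymes of fatty acid oxidation. Scn7a ran most like Prex2 (0.85), Cdh19 (0.84) and Pigz (0.84), and Cdh19 was on the list of Schwann cell genes. The values were lower for Fgf13, led by Ubr1 (0.78), and for Scn3b (Sobp, 0.65), while Scn2b was led by Ccdc114 (0.82). Ventricular Scn2b was lowest in MBNL1 replicate 1, the library with few genes above 0, and its r without that library was not computed. Among the 8 members themselves Scn10a and Scn7a had r of 0.53, and Scn10a and Scn4b -0.50.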

How the data were processed

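Left ventricle and atria RNA (TruSeq stranded mRNA, paired-end) was aligned by the authors to mm10 with STAR 2.7.10b and quantified with RSEM 1.3.1 against GENCODE, and the deposited tables hold, per library, RSEM expected counts that are not normalized and TPM values that are normalized for transcript length and depth. The strand setting is not given in the sources used here. Samples were grouped by chamber and cohort, with 3 biological replicates each per the labels.

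Expected counts were rounded and filtered with filterByExpr, scaled by TMM and fitted in edgeR 4.0.16 (R 4.3.3) with 1 mean per group over all 36 libraries, using the robust quasi-likelihood test with Benjamini-Hochberg adjustment over 19231 genes. The script was tested on simulated data. Replicates of a group differed by more than sampling noise (chi-square per degree of freedom of 9.62 or more), so none was a copy of the reads of another replicate of its group. This cannot tell separately prepared libraries of the same RNA from biological replicates, and libraries of different groups were not compared in this way. Gene positions came from GENCODE on GRCm38 and promoters from RefSeq.

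Members and lists were chosen with earlier results of these data known. The genes named were the 8 members, genes called among the listed relatives and partners though not all of these, and the 3 genes most like each member. Same-numbered libraries deviated together in all 3 pairs only in the ventricle against atria comparisons, with correlations of 0.123 to 0.257 in –dox and +dox. Elsewhere the correlations were not above 0.1 in all 3 pairs, but single pairs were as high, up to 0.290 (replicate 3, atria MBNL1 against +dox). Both chambers were taken from the same mice, so the chamber comparisons and interactions were also fitted with the animal as a block. Alternatives were DESeq2 1.42.0, limma 3.58.1 on log2(TPM + 1), no filter, no fold limit, fits within a chamber, the library set as a term or alone, the replicate block and leaving out each library. Results for 1 further listed gene are not reported here.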

Additional observations from a re-analysis of the deposited data

Results flagged for a closer look

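Nalcn, the sodium leak channel, differed between chambers in the comparison of –dox with +dox. The test of the difference itself, ventricle minus atria for –dox against +dox, gave -1.57 on the log2 scale (SE 0.37, edgeR adjusted p = 0.0291), and -1.61 (0.00759) with the animal as a block, an alternative chosen after seeing the data. For +/–dox against +dox it gave -0.53 (SE 0.37, edgeR adjusted p = 0.602) and was not called. Ventricular Nalcn was at 1.47 to 2.39 CPM in +dox, 0.682 to 1.65 in –dox and 1.32 to 2.78 in +/–dox, with no ventricular call, and atrial Nalcn at 1.56 to 1.88 CPM in +dox, 2.56 to 3.95 in –dox and 2.38 to 2.69 in +/–dox.

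Scn8a in MBNL1+MBNL2 against +dox was below every +dox library in the ventricles and above every one in the atria. None of these libraries had more than 4 counts of Scn8a, the difference between chambers was not tested, and no fold is given.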

How the results depend on the processing

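For the 45 results of members followed, 374 of 418 values under other settings kept direction and side of the threshold, 16 lost the call, 25 gained it and 3 changed sign. Leaving out 1 library kept 251 of 294, lost 40 and gained 3, with no change of sign. Causes of the changes were not tested. With limma on log2(TPM + 1), Fgf13 between ventricle and atria in +dox turned to -0.031, and the Scn10a interactions turned to -0.10 (–dox) and -0.11 (+/–dox). With this setting 1 member was called in ventricle –dox, 0 in ventricle +/–dox, and 0 in the ventricles of MBNL2 or MBNL1+MBNL2 against +/–dox, where fits of the ventricles alone also called 0. Without the filter 1 member was called in ventricle +/–dox, 0 in ventricle MBNL1, 1 in atria –dox and 0 in MBNL1 atria against +/–dox. DESeq2, the library set term and the replicate block each gave 2 members in ventricle MBNL1 and 1, Scn4a, in ventricle MBNL1+MBNL2 against +dox, and limma also gave 1 there. The fit of library set 53 alone gave 2 in ventricle MBNL1, and the fit of the ventricles alone gave 0. In atria +/–dox, 2 members were called with no fold limit, with DESeq2, in set 53 alone and in the atria alone. In atria MBNL1+MBNL2 against +dox the set term called 1. In atria MBNL1 against +/–dox, DESeq2, the block, the set term, the atria alone and limma each called 2. Ventricle against atria in +dox gave 5 with no fold limit, and the –dox interaction gave 1, Scn10a, in set 53 alone and with the animal as a block. Set 53 alone could not be run for MBNL1+MBNL2.

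Counts of members called when 1 library was left out ranged from 1 to 2 in ventricle –dox and +/–dox, 0 to 1 in ventricle MBNL1, 0 to 1 in the ventricles of MBNL2 and MBNL1+MBNL2 against +/–dox, 1 to 3 in atria –dox, 0 to 1 in atria +/–dox, 0 to 0 in atria MBNL1 and 1 to 2 in atria MBNL1+MBNL2 against +/–dox, 3 to 4 in both chamber comparisons and 0 to 1 in the –dox interaction. Fgf13 in the –dox chamber comparison fell to 0.55 without ventricle replicate 1 and 0.58 without atria replicate 3, under the fold limit, and in +dox it reached 0.60 without ventricle replicate 1 or 2.

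Replicate numbers are not shown to pair the cohorts of a chamber. With the replicate block ventricular –dox against +dox was 2.14 for Scn10a and 0.82 for Scn4a. A block within the 6 libraries of a chamber comparison, and the animal as a block over all 36 libraries, were added after seeing the data and changed no call of a chamber comparison. With 3 libraries a group, low counts limit Scn8a, Scn2b and Scn3b.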
